A study of Mus musculus with 12 samples.

Results

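The caveolins and cavins are the 7 mouse genes that encode the coat proteins of caveolae: Cav1, Cav2 and Cav3, and Cavin1 (also Ptrf), Cavin2 (also Sdpr), Cavin3 (also Prkcdbp) and Cavin4 (also Murc). They were chosen by gene name through their Entrez identifiers, with no threshold on a value, and they are 7 of the 27179 genes counted. The family was taken up with earlier results of the same compound and time comparisons known, so the tests below describe each gene and are no independent support for any of them. The cells were mouse embryonic fibroblasts, connective tissue cells taken from wild-type C57BL/6 embryos at embryonic day 13.5 and grown in DMEM with 10% serum under 3% oxygen. Cultures received WM-8014, which the labels call an inhibitor of the MYST family of histone acetyltransferases, or WM-2474, which they call its inactive control, each at 10 µM. Polyadenylated RNA was sequenced after 96 h or 240 h of treatment, from 3 cultures in each of the 4 groups, numbered 5, 6 and 7 in every group. The design text calls the cultures biological replicates, every group carries a compound, and no untreated cells were part of the 12 libraries.

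Caveolae are small flask-shaped pits of the plasma membrane, abundant in fibroblasts, smooth muscle, endothelium and fat cells, that flatten when the membrane is stretched and that gather cholesterol, sphingomyelin and signalling proteins. Caveolin-1 inserts into the membrane as oligomers and is needed for the pits in cells other than striated muscle. Caveolin-2 joins those oligomers and depends on caveolin-1 to leave the Golgi, and caveolin-3 takes the place of caveolin-1 in striated muscle. Cavin-1 is the essential subunit of the outer coat, cavin-2 and cavin-3 bind it in separate complexes, and cavin-4 is found mainly in muscle.

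The promoters of 4 genes are shown because Cav1 and Cav2 lie side by side and moved together, while Cavin1 was higher and Cavin2 lower under WM-8014 at 240 h. Cavin3, which was lower by more than Cavin2 at 240 h, had no promoter sequence to show. The sequences are RefSeq's for the build GRCm38.p6, the 250 bases before the start site read on the gene's own strand. Positions are counted from the start site, whose first base is +1. Capitals mark matches to any of 5 motifs searched on both strands: the sterol regulatory element core CACCCCAC, the CArG box by its consensus, the TEAD motif GGAATG, the GC box GGGCGG and the TATA box TATAAA. No motif match overlapped another.
Cav1 promoter, first of 2 listed starts, plus strand, chr6:17306085-17306334: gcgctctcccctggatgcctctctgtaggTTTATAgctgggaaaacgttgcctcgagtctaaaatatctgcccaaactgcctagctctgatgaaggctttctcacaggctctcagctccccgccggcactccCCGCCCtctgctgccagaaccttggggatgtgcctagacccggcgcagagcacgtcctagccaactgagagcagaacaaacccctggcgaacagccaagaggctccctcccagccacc
Cav2 promoter, plus strand, chr6:17280935-17281184: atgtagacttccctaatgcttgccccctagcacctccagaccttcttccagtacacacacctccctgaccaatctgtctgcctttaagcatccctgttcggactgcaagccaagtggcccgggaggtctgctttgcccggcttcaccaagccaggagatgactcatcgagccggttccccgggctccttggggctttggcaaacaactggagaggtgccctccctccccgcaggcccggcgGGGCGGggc
Cavin1 promoter, first of 2 listed starts, minus strand, chr11:100970618-100970867: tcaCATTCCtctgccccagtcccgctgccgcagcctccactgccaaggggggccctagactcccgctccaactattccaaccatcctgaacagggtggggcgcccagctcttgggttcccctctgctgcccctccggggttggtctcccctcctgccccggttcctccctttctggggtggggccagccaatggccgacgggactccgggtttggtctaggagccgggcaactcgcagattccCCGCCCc
Cavin2 promoter, plus strand, chr1:51288876-51289125: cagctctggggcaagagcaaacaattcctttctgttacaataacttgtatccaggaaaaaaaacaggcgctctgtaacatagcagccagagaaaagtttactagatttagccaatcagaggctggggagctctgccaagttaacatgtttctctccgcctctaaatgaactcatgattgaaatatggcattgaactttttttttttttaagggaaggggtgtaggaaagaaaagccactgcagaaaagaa

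The Cav1 window held a GC box at -118 to -113 and the letters of a TATA box at -221 to -216, both on the minus strand. The Cav2 window held a GC box at -9 to -4. The Cavin1 window held the letters of a TEAD motif at -247 to -242 and a GC box at -7 to -2, both on the minus strand. None of the 5 motifs was found in the Cavin2 window. These matches are descriptions of the letters and not binding sites. Over all 32851 promoter windows of the same length, 32.7% held the GC box, 12.6% the TEAD motif, 12.4% the TATA box, 2.58% the sterol core and 1.47% the CArG box, and no window of the family held either of the last pair. The G+C share was 59.6% for Cav1, 62.0% for Cav2 and 67.6% for Cavin1, against a median of 52.4% over all windows and 40.4% for Cavin2. CpG dinucleotides numbered 10, 10, 12 and 2 in the same order, against a median of 6. Of the other genes, Cavin4 held a TATA box on the plus strand at -30 to -25 (G+C 48.8%), Cav3 held no match (56.0%), and Cavin3 was not in the promoter table.

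The libraries held 10147466 to 45903190 reads assigned to genes, so that 3 reads corresponded to 0.0615 to 0.303 CPM (the usual depth-scaled count, here relative to the library's total after TMM adjustment). RPKM values are CPM divided by the gene length in the deposited table and serve to compare levels between genes. Of the family, 6 genes passed the filter on low counts and Cav3 did not. Differences are log2 fold changes with standard errors from edgeR's quasi-likelihood test, adjusted over 14136 genes, and a gene was called at an adjusted p under 0.05. Control cultures 6 and 7 at 96 h, both under WM-2474, are known from earlier results to stand apart in a few genes. Where a call of a member, or a 96 h compound call of a gene in the 4 lists below, changed without them, this is stated. Leaving both out leaves a lone control library at 96 h and weakens every test that uses this group. A call lost in that fit therefore does not show that these cultures made it. Calls of the neighbours, of the genes of like pattern and of the cell markers were not refitted without them. In bulk RNA, fewer cells of a kind and less RNA per cell cannot be told apart.

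Cav1 and Cav2 were higher under WM-8014 at both times and most at 240 h, and both rose from 96 h to 240 h under either compound. Among the 4 groups, both were lowest under WM-2474 at 96 h and highest under WM-8014 at 240 h, and no libraries of different groups overlapped. Cav1 (Entrez 12389), the main caveolin of fibroblasts, lies on the plus strand of chromosome 6 at 17306335 to 17341328. At 96 h it stood at 550 CPM in culture 5, 556 in culture 6 and 552 in culture 7 under WM-2474. Under WM-8014 at that time it stood at 597, 620 and 587 CPM. Every treated culture was above every control, and the log2 fold change was 0.12 ± 0.0320 (SE; adjusted p = 0.00833), or 1.09-fold. Dropping culture 6 of WM-8014 at 96 h ended this call (log2 0.10, adjusted p = 0.0528), as did dropping control cultures 6 and 7 of 96 h (0.13, adjusted p = 0.156). It also ended without culture 5 in all groups (0.12, adjusted p = 0.0857) and without culture 6 (0.10, adjusted p = 0.117), over a range of adjusted p of 0.00317 to 0.156, with the fold little changed.

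At 240 h Cav1 stood at 926, 931 and 955 CPM in cultures 5, 6 and 7 under WM-2474 and at 1368, 1382 and 1379 CPM under WM-8014. The groups were far apart relative to their spread, with means of 937 ± 15.7 and 1376 ± 7.38 CPM (SD, n = 3). The compound difference in log2 was 0.55 ± 0.0316 (adjusted p = 1.59e-11), 1.47-fold, and it exceeded that at 96 h by 0.43 ± 0.0449 (adjusted p = 2.74e-06 for the interaction). From 96 h to 240 h, Cav1 rose 1.70-fold under WM-2474 (log2 0.76 ± 0.0319, adjusted p = 6.54e-14). Under WM-8014 it rose 2.29-fold (log2 1.19 ± 0.0321, adjusted p = 3.33e-17). In RPKM, its rank among the 14136 tested genes went from 233 under WM-2474 at 96 h to 82 under WM-8014 at 240 h.

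Cav2 (Entrez 12390), the partner that assembles with caveolin-1, lies on the same strand of chromosome 6 at 17281185 to 17289130, ending 17205 bases before Cav1 starts. At 96 h it stood at 47.3, 42.5 and 46.0 CPM in cultures 5, 6 and 7 under WM-2474 and at 52.7, 58.7 and 48.9 CPM under WM-8014. The groups did not overlap, though the highest control and the lowest treated culture were close. The log2 fold change was 0.24 ± 0.0584 (adjusted p = 0.00555). The call ended without culture 6 of WM-8014 at 96 h (log2 0.16, adjusted p = 0.0506), without culture 6 in all groups (0.13, adjusted p = 0.191) and without control cultures 6 and 7 of 96 h (0.17, adjusted p = 0.288), over a range of adjusted p of 0.00138 to 0.288. At 240 h it stood at 63.7, 66.6 and 68.5 CPM under WM-2474 and at 125, 126 and 119 CPM under WM-8014. This was the widest compound difference of the family, at a log2 value of 0.90 ± 0.0521 (adjusted p = 2.36e-11) or 1.86-fold. It exceeded that at 96 h by 0.66 ± 0.0781 (adjusted p = 9.83e-06). Over time Cav2 rose by 0.55 ± 0.0557 on the log2 scale under WM-2474 (adjusted p = 8.47e-08) and by 1.21 ± 0.0547 under WM-8014 (adjusted p = 1.30e-13).

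Cav3 (Entrez 12391), the caveolin of striated muscle, lies on chromosome 6 at 112459505 to 112472872 and received 27 reads in the 12 libraries together. Single libraries held from 0 to 4 reads, with 0 at 96 h in culture 6 under WM-2474 and culture 7 under WM-8014, and every library was at or below 0.279 CPM. No difference was detectable at this depth. The gene overlaps 2 long non-coding RNAs in the reference, LOC115490429 and Gm35649, whose reads were not analysed here.

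**Figure D1:**
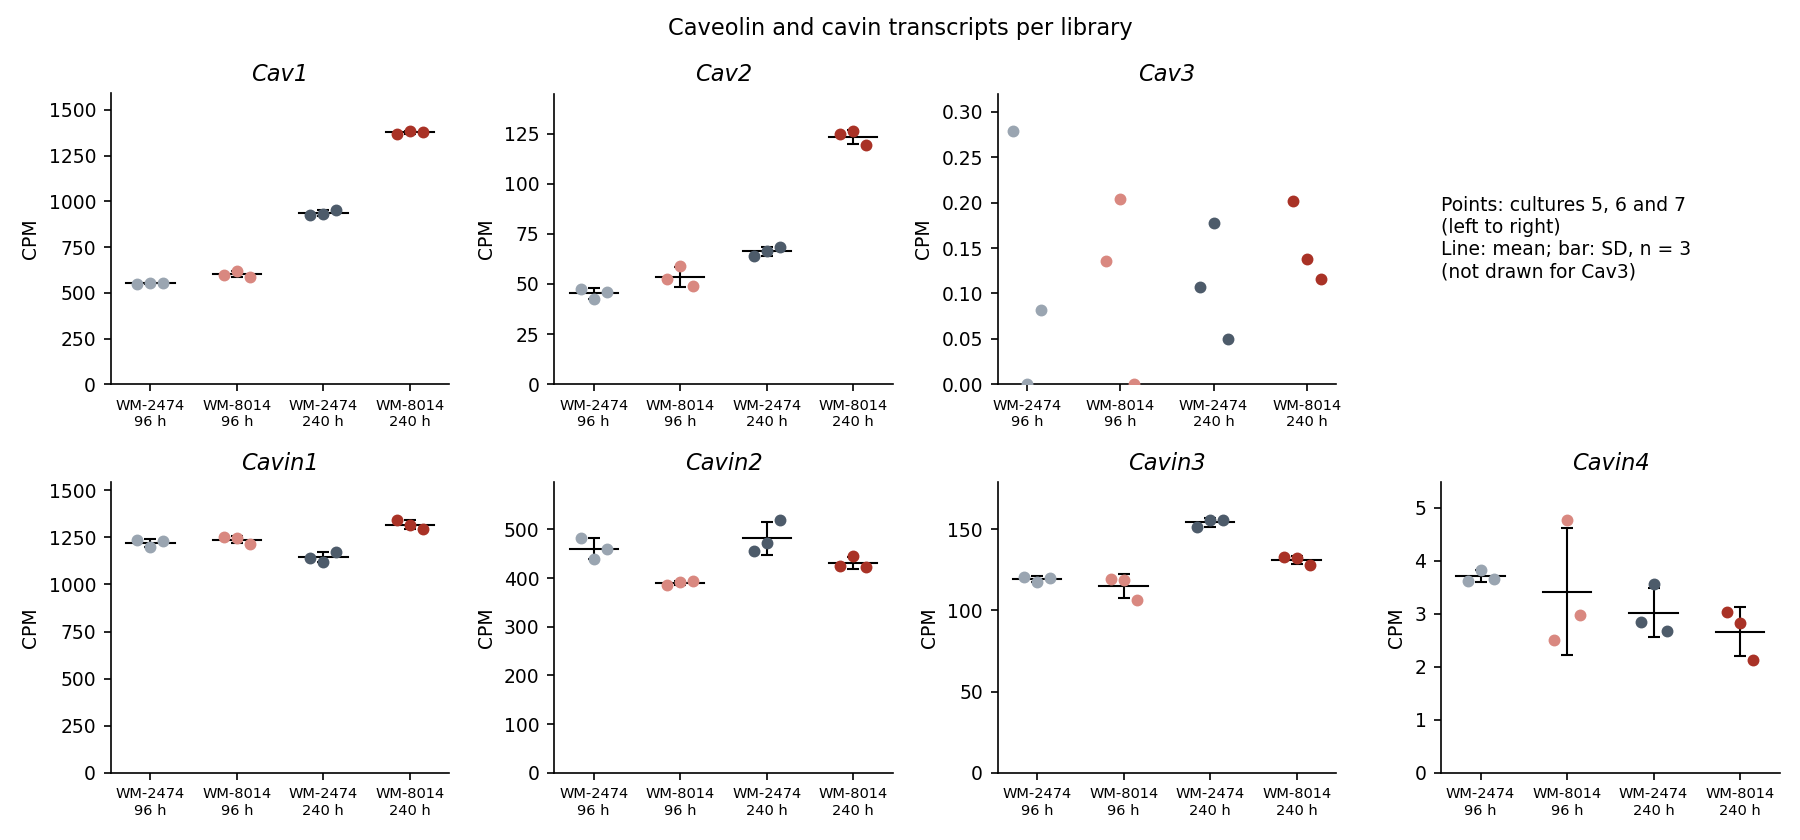
Levels of the 7 genes in CPM (vertical axis, from 0, one scale per panel) in the 4 groups, with each culture as a point and the mean with SD (n = 3) as a line and bar, not drawn for Cav3. Cav1 and Cav2 step up from WM-2474 at 96 h to WM-8014 at 240 h with no overlap between groups, while Cavin2 is lower under WM-8014 at both times and Cavin3 is highest under WM-2474 at 240 h.

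The cavins did not move as a block. Under WM-8014 at 240 h Cavin1 was higher and Cavin2 and Cavin3 were lower than under WM-2474, and at 96 h Cavin2 alone passed the test. The compound differences called among cavins were at most 0.24 in size on the log2 scale, smaller than those of Cav1 and Cav2 at 240 h. Cavin4 stood at 2.14 CPM or more in every library but at no more than 4.77.

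Cavin1 (Entrez 19285), the essential coat subunit, lies on chromosome 11 at 100956736 to 100970617 and was the most abundant cavin per length in every library. At 96 h it stood at 1236, 1196 and 1228 CPM in cultures 5, 6 and 7 under WM-2474 and at 1251, 1249 and 1215 CPM under WM-8014. The groups overlapped and the log2 difference was 0.02 with a 95% interval of -0.05 to 0.09 (adjusted p = 0.690). At 240 h it stood at 1141, 1120 and 1173 CPM under WM-2474 and at 1343, 1314 and 1295 CPM under WM-8014. Every treated culture was above every control, and the log2 fold change was 0.20 ± 0.0325 (adjusted p = 3.10e-05). The compound difference was larger at 240 h than at 96 h by 0.18 ± 0.0460 (adjusted p = 0.0126), a call lost without culture 5 in all groups (0.15, adjusted p = 0.193), without culture 6 (0.19, adjusted p = 0.0990) and without control cultures 6 and 7 of 96 h (0.20, adjusted p = 0.0826), over a range of adjusted p of 0.000895 to 0.193. Between the times Cavin1 fell by 0.09 (log2) under WM-2474 (adjusted p = 0.0280), a call lost under 10 of 17 alternatives. These included leaving out control culture 5 or 7 at 96 h, control culture 5 or 6 at 240 h, or any culture number in all groups (adjusted p = 0.0554 to 0.260), and dropping control cultures 6 and 7 of 96 h (-0.11, adjusted p = 0.146). Under WM-8014 it rose by 0.09 (adjusted p = 0.0276), a call lost or turned under 8 of 16 alternatives: with library totals as the scaling it was -0.09 (adjusted p = 0.0178). It was lost without culture 7 of WM-8014 at 96 h, culture 5 or 6 of WM-8014 at 240 h, or any culture number in all groups (adjusted p = 0.0554 to 0.155).

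Cavin2 (Entrez 20324), which binds phosphatidylserine and shapes the membrane, lies on chromosome 1 at 51289126 to 51302960. It overlaps the long non-coding RNA 9330175M20Rik, which received 38 reads in all against 104946 for Cavin2. Whether the counting used strand is not given in the sources used here, so reads of overlapping genes may not have been told apart. At 96 h it stood at 482, 440 and 460 CPM in cultures 5, 6 and 7 under WM-2474 and at 386, 391 and 394 CPM under WM-8014. The treated cultures lay close together below all 3 controls, and the log2 difference was -0.24 ± 0.0437 (adjusted p = 0.000530). This call held in all 17 alternatives. At 240 h it stood at 455, 471 and 520 CPM under WM-2474 and at 426, 445 and 422 CPM under WM-8014. The groups did not overlap, and the difference of -0.16 ± 0.0434 (adjusted p = 0.00511) was lost without culture 7 of WM-2474 at 240 h, the highest of its group (adjusted p = 0.0560, log2 -0.10). Leaving culture 7 out of all groups also ended the call (0.160, log2 -0.09), over a range of 0.000459 to 0.160. The compound differences at the 2 times were not shown to differ (0.08, 95% interval -0.05 to 0.21, adjusted p = 0.499). Over time Cavin2 changed by 0.07 under WM-2474 (adjusted p = 0.249) and rose by 0.14 under WM-8014 (adjusted p = 0.00960), values that turned to -0.08 and -0.04 with library totals as the scaling. The first passed without culture 5 of WM-2474 at 240 h (0.11, adjusted p = 0.0440) and without culture 5 in all groups (0.15, adjusted p = 0.0337). The second was lost without culture 6 of WM-8014 at 240 h (adjusted p = 0.0530) and without culture 6 in all groups (0.0946).

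Cavin3 (Entrez 109042), known to bind protein kinase C delta and the cavin-1 coat, lies on chromosome 7 at 105480616 to 105482197. At 96 h it stood at 121, 117 and 120 CPM in cultures 5, 6 and 7 under WM-2474 and at 119, 119 and 106 CPM under WM-8014. The groups overlapped (log2 -0.06, 95% interval -0.14 to 0.03, adjusted p = 0.355). At 240 h it stood at 151, 156 and 156 CPM under WM-2474 and at 133, 132 and 128 CPM under WM-8014. All treated cultures were below all controls, and the log2 difference was -0.24 ± 0.0405 (adjusted p = 6.81e-05). The difference between the times of this compound effect, -0.18 ± 0.0582, missed the threshold (adjusted p = 0.0529) and passed it with the culture number as a block (-0.18, adjusted p = 0.0447). It also passed without culture 7 of WM-8014 at 96 h (-0.23, adjusted p = 0.00560), without culture 5 of WM-2474 at 240 h (-0.20, adjusted p = 0.0421) and with library totals as the scaling (-0.22, adjusted p = 0.0139). From 96 h to 240 h Cavin3 rose by 0.37 ± 0.0406 under WM-2474 (adjusted p = 2.64e-07). Under WM-8014 it rose by 0.19 ± 0.0417 (adjusted p = 0.000697), which was 0.01 (adjusted p = 0.860) with library totals as the scaling.

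Cavin4 (Entrez 68016), the muscle cavin, lies on chromosome 4 at 48663514 to 48673492 and received 758 reads in the 12 libraries. Under WM-2474 it stood at 3.62, 3.83 and 3.67 CPM at 96 h and at 2.84, 3.56 and 2.67 CPM at 240 h in cultures 5, 6 and 7. Under WM-8014 it stood at 2.51, 4.77 and 2.98 CPM at 96 h and at 3.03, 2.84 and 2.14 CPM at 240 h. The compounds overlapped at both times, as did the times under WM-8014. The compound differences of -0.11 at 96 h (95% interval -0.53 to 0.30, adjusted p = 0.731) and -0.20 at 240 h (-0.63 to 0.23, adjusted p = 0.465) did not pass. All 3 cultures under WM-2474 were lower at 240 h than at 96 h, with no overlap, but that difference of -0.28 also did not pass (adjusted p = 0.261). Under WM-8014 the time difference of -0.37 (adjusted p = 0.162) passed only with library totals as the scaling (-0.55, adjusted p = 0.0310) and without culture 5 of WM-8014 at 96 h (-0.55, adjusted p = 0.0470).

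**Figure D2:**
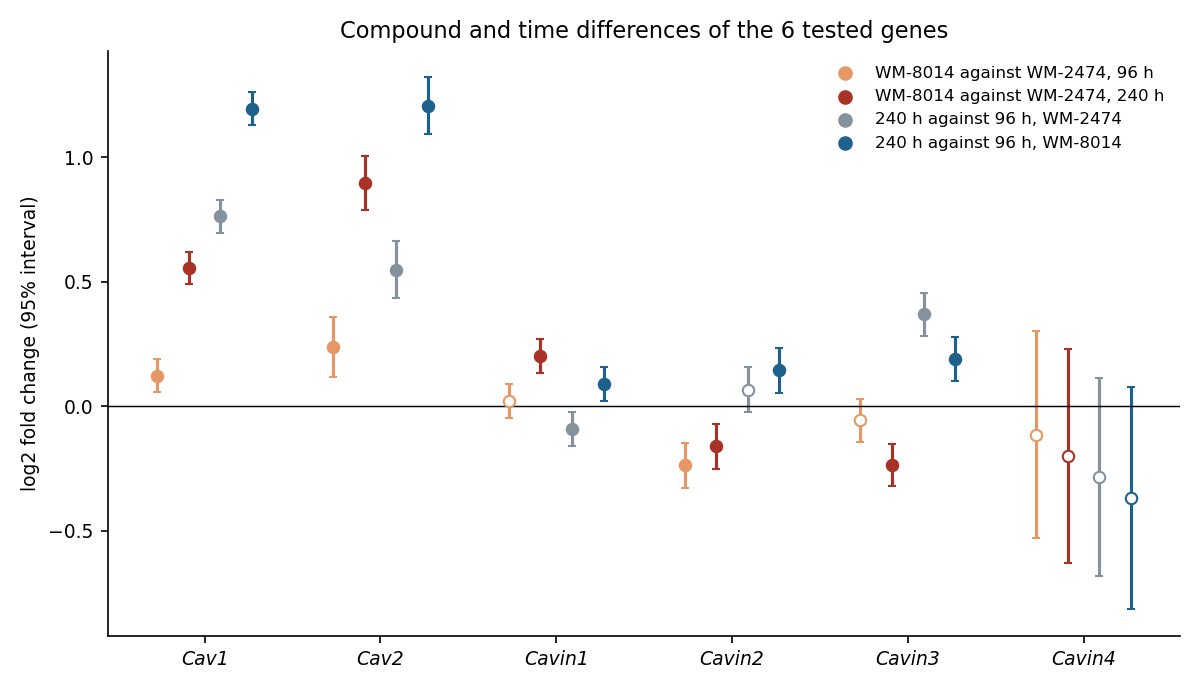
Log2 fold changes (vertical axis) with 95% intervals of the 6 tested genes for the compound at 96 h and 240 h and for time under each compound, from edgeR, filled where the adjusted p was under 0.05 and open where it was not. Cav1 and Cav2 stand above 0 in all 4 comparisons, and Cavin2 is below 0 for the compound at both times. The time differences under WM-8014 of Cavin1 and Cavin2 turn to -0.09 and -0.04 with library totals as the scaling.

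At 96 h, 2 of the 6 tested genes were called higher and 1 lower, where 10.9% of all tested genes were called higher and 11.8% lower. At 240 h, 3 were higher and 2 lower, against 21.2% and 21.4% of all genes. The interaction was called positive for 3 and negative for 0, against 5.15% and 5.53%. Under WM-2474, 3 were called as rising and 1 as falling with time, against 19.8% and 19.1%. Under WM-8014, 5 were called as rising and 0 as falling, against 24.8% and 25%. The median log2 change of the 6 genes was -0.02 at 96 h and 0.02 at 240 h for the compound, beside 0.01 for all genes at 240 h. At 240 h it lay between the higher Cav1, Cav2 and Cavin1 and the lower Cavin2 and Cavin3. Because the family was taken up with these comparisons known, the shares are given as context and nothing is read from them. Each called compound or time difference moved the same way in 3 of 3 same-numbered cultures, and its groups did not overlap. With library totals in place of TMM, the median of all genes moved to -0.16 for time under WM-2474 and to -0.20 under WM-8014. Cavin1 and Cavin2 over time under WM-8014 (-0.09 and -0.04 by that scaling) stood above that median, and Cav1 and Cav2 rose with either scaling.

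Ratios within a library do not depend on how libraries are scaled. Per length, the Cav1 transcript stood at 0.527 ± 0.0124 of the Cavin1 transcript under WM-2474 at 96 h (SD, n = 3) and at 0.565 ± 0.0114 under WM-8014. At 240 h the ratio was 0.952 ± 0.0125 under WM-2474 and 1.22 ± 0.0275 under WM-8014. All 3 libraries of the last group, from 1.19 to 1.24, held more Cav1 than Cavin1 per length, and no library of the other 3 groups did, the highest being 0.967. The ratio of Cav2 to Cav1 was far lower, at 0.0771 to 0.0802 under WM-2474 at 240 h and 0.0967 to 0.102 under WM-8014. At 96 h the 2 groups overlapped, at 0.0854 to 0.0963 and 0.0932 to 0.106. In RPKM, the order of the family was Cavin1, Cav1, Cavin2, Cavin3, Cav2 and Cavin4 in the group means, except that Cav1 (497 ± 2.67) passed Cavin1 (409 ± 7.46) under WM-8014 at 240 h. Cavin2 and Cavin3 overlapped under WM-2474 at 240 h, at 149 to 170 and 147 to 152 RPKM, and were apart in the other groups.

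The makeup of the cavin transcripts shifted toward Cavin1 under WM-8014. Of the summed RPKM of the 4 cavins, Cavin1 held 58.5 ± 0.390% under WM-2474 and 61.5 ± 0.254% under WM-8014 at 96 h, and 53.5 ± 0.773% and 60.2 ± 0.510% at 240 h. Cavin2 held 23.3 ± 0.550% and 20.4 ± 0.602% at 96 h, and 23.7 ± 0.969% and 20.8 ± 0.521% at 240 h. For both genes no library of a compound overlapped the other compound at the same time. Cavin3 held 18.0 ± 0.148% and 17.9 ± 0.797% at 96 h, where the groups overlapped, and 22.6 ± 0.532% against 18.8 ± 0.0592% at 240 h, where they did not. Cavin4 held 0.368% or less in every library. These shares restate the levels above and were not tested.

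**Figure D3:**
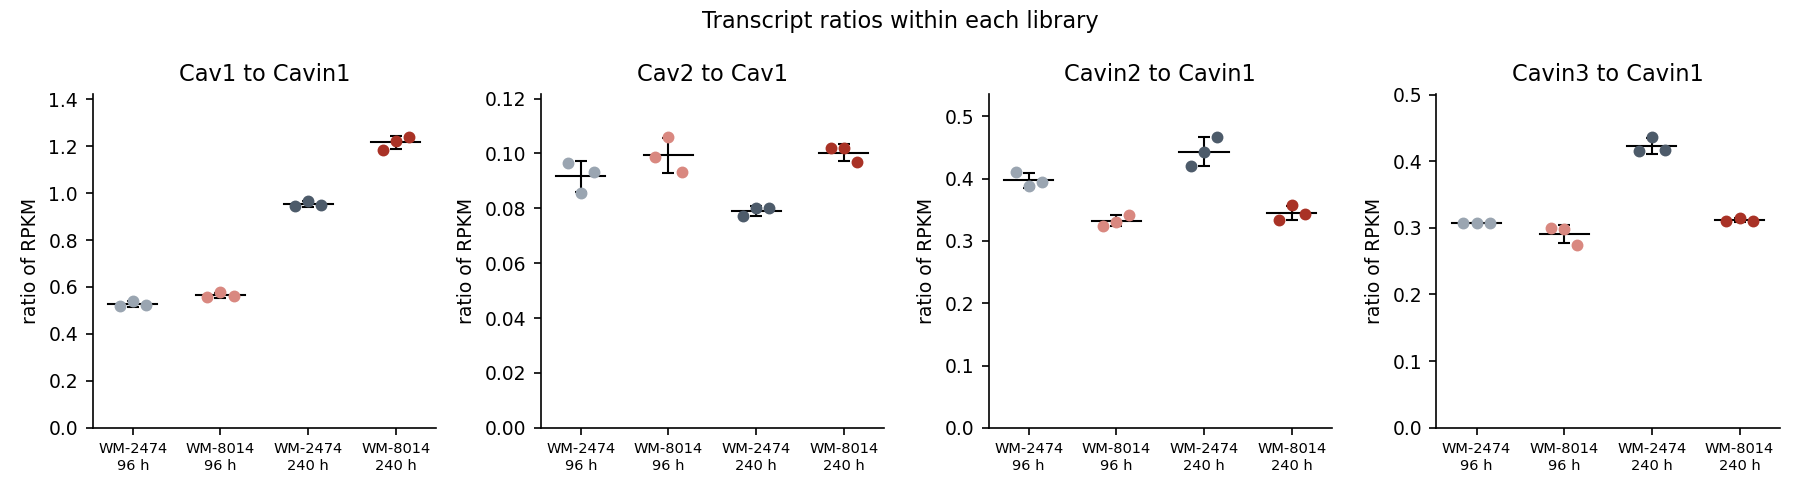
Ratios of RPKM within each library (vertical axis, from 0) for Cav1 to Cavin1, Cav2 to Cav1, Cavin2 to Cavin1 and Cavin3 to Cavin1 in the 4 groups, with each culture as a point and mean and SD (n = 3) as line and bar. The Cav1 to Cavin1 ratio rises from 0.527 under WM-2474 at 96 h to 1.22 under WM-8014 at 240 h, while Cavin2 to Cavin1 is lower under WM-8014 at both times.

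Proteins that bind the neck and coat of caveolae were read from a list of 16 genes, of which 15 were tested (not Pacsin1). At 96 h, 2 were higher and 2 lower under WM-8014, with a median log2 difference of -0.01. At 240 h, 6 were higher and 0 lower, with a median of 0.11, beside 21.2% of all genes called higher and 21.4% lower and a median of 0.01. Ehd2, an ATPase that forms a ring at the neck of caveolae, was higher at both times, at 424 ± 3.43 against 472 ± 8.36 CPM at 96 h (log2 0.16, adjusted p = 0.00160) and 523 ± 7.19 against 641 ± 21.1 CPM at 240 h (0.29, adjusted p = 2.28e-07). The 96 h call was lost without control cultures 6 and 7, where a lone control library was left and the log2 value was 0.15. It was lost under no other of 17 alternatives. Pacsin3, a membrane-bending protein of the same family as the caveolar Pacsin2, was also higher at both times, by 0.26 (adjusted p = 0.00258) and 0.43 (adjusted p = 3.59e-06). Ehd4, a paralogue of Ehd2, turned from lower at 96 h (-0.31, adjusted p = 0.000246) to higher at 240 h (0.19, adjusted p = 0.00389), the latter lost without culture 5 (0.0522) or 6 (0.0826) in all groups. Ehd1, another paralogue, was higher at 240 h (0.25, adjusted p = 1.08e-05), when Pacsin2 and Src also passed. Neither Pacsin2 nor Src passed at 240 h with library totals as the scaling. Ror1, a receptor reported in human cells as a scaffold for cavin-1 and caveolin-1, was lower at 96 h (-0.48, adjusted p = 0.0490), in 2 of 3 cultures and with groups that overlapped, a call lost under 10 of 17 alternatives (adjusted p up to 0.951, log2 -0.05 without control cultures 6 and 7). The dynamins Dnm1, Dnm2 and Dnm3 did not pass at either time. Across alternatives the list held 3 to 8 genes higher and 0 to 1 lower at 240 h. With time, 8 rose and 1 fell under WM-2474, and 11 rose and 1 fell under WM-8014, where 19.8% and 24.8% of all genes rose and 19.1% and 25% fell.

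Caveolae hold sphingomyelin and phosphatidylserine, and 11 of 12 genes for their synthesis and turnover were tested (not Sptlc3). At 96 h 1 was higher and 0 lower, and at 240 h 5 were higher and 0 lower, with medians of -0.01 and 0.08, where 10.9% and 21.2% of all genes were called higher and 11.8% and 21.4% lower at the 2 times. The gene called at both times, Smpd1, encodes acid sphingomyelinase, which breaks sphingomyelin down. It stood at 54.6 ± 1.78 CPM under WM-2474 and 61.2 ± 2.39 under WM-8014 at 96 h (log2 0.16, adjusted p = 0.0177), and at 52.7 ± 2.60 and 69.6 ± 1.60 CPM at 240 h (0.40, adjusted p = 4.82e-07). The 96 h call was lost under 8 of 17 alternatives, with a log2 value of 0.13 to 0.19 throughout. These were DESeq2 (adjusted p = 0.0602), thinning (0.0714), leaving out control culture 6 (0.0776), culture 5 of WM-8014 (0.0961), or culture 5, 6 or 7 in all groups (0.105, 0.0811 and 0.0744), and dropping control cultures 6 and 7 (0.332). Both sphingomyelin synthases were higher at 240 h, Sgms2 by 0.42 (adjusted p = 2.19e-05) and Sgms1 by 0.22 (adjusted p = 0.000701). Cert1, which carries ceramide to the Golgi, was higher by 0.13 (adjusted p = 0.00928). This call was lost in 4 of 16 alternatives (adjusted p up to 0.0975), with library totals and without culture 7 of WM-2474 at 240 h, or culture 5 or 7 in all groups. The ceramide synthase Cers6 also passed, but was not called higher with DESeq2, without the filter or with library totals. The phosphatidylserine synthases Ptdss1 and Ptdss2 did not pass at either time. Across alternatives 3 to 5 genes were higher and 0 to 2 lower at 240 h.

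Receptors, channels and enzymes reported in caveolae were called in both directions. Of 12 tested of 14 (not Cd36 or Nos3), 0 were higher and 2 lower at 96 h, and 2 were higher and 2 lower at 240 h. The shares of all tested genes were 10.9% higher and 11.8% lower at 96 h and 21.2% and 21.4% at 240 h. The lipoprotein receptor Scarb1 was lower at both times, by 0.15 (adjusted p = 0.00525) and 0.29 (adjusted p = 3.26e-06). The growth factor receptor Egfr was lower by 0.22 (adjusted p = 0.0360, groups overlapping) and 0.21 (adjusted p = 0.0233), calls lost under 8 of 17 and 6 of 16 alternatives (adjusted p up to 0.716 and 0.0989). That of Scarb1 at 96 h was lost without culture 6 (0.121) or 7 (0.0683) in all groups and without control cultures 6 and 7 (0.374). The adenylyl cyclase Adcy6 and the calcium pump Atp2b4 were higher at 240 h, by 0.19 (adjusted p = 0.000585) and 0.20 (adjusted p = 0.00305). Of 12 flotillin, clathrin and AP2 genes, which belong to other entry routes, 1 was higher and 3 lower at 96 h and 2 higher and 2 lower at 240 h, beside the same shares of all genes. The 96 h counts were 0 higher and 1 lower without control culture 7 of 96 h, without culture 5 of WM-8014 at 96 h or without culture 6 in all groups, and 1 and 1 without culture 6 of WM-8014 at 96 h. The clathrin assembly factors Picalm and Dab2 were lower at both times, Picalm by 0.23 (adjusted p = 0.000514) and 0.25 (adjusted p = 4.30e-05) and Dab2 by 0.19 (adjusted p = 0.0131) and 0.23 (adjusted p = 0.00159). At 96 h the call of Dab2 was lost without control culture 7 (adjusted p = 0.0793), culture 5 or 6 of WM-8014 (0.0683 and 0.0638), culture 6 in all groups (0.109) or control cultures 6 and 7 (0.405), over a range from 0.00151, while that of Picalm was lost without control cultures 6 and 7 (0.0929) and under no other of its 17 alternatives. The flotillin Flot1 was higher and the light chain Clta lower at 96 h, by 0.14 and 0.10, and the light chain Cltb and the adaptor Ap2a1 were higher at 240 h, by 0.24 and 0.13. The 96 h calls of Flot1 and Clta were lost under 8 and 10 of 17 alternatives, with adjusted p up to 0.507 and 0.246, and that of Ap2a1 at 240 h under 3 of 16 (up to 0.0571). Without control cultures 6 and 7 of 96 h, the 96 h calls of Egfr, Flot1 and Clta were also lost. Their log2 values were -0.08, 0.08 and -0.12 in that fit, beside -0.22, 0.14 and -0.10 in the main fit. The fit has a lone control library, which weakens the test of every gene, so nothing about these lists is read from the losses.

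**Figure D4:**
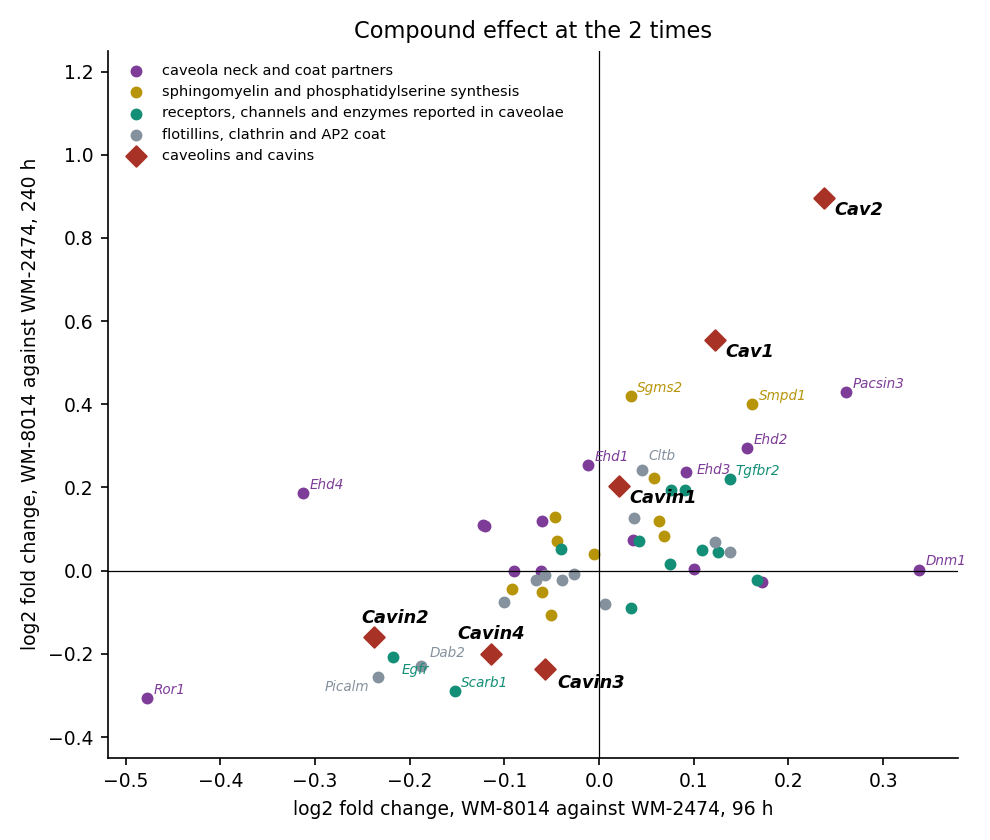
Log2 fold change of WM-8014 against WM-2474 at 96 h (horizontal axis) and 240 h (vertical axis) for the 6 tested caveolin and cavin genes (diamonds) and the tested genes of 4 lists (points, coloured by list). Cav2 and Cav1 lie highest at 240 h, above Pacsin3, Sgms2 and Smpd1, and Cavin2, Cavin3 and Cavin4 lie below 0 at both times, though only Cavin2 at both times and Cavin3 at 240 h passed the test.

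Of the nearest tested genes on either side of each member, Cav1 and Cav2 are each other's neighbours, and the others included genes that moved with the member and against it. Met, the hepatocyte growth factor receptor gene, lies 122021 bases past Cav1 and was lower under WM-8014 by 0.21 at 96 h (adjusted p = 0.00880) and 0.46 at 240 h (adjusted p = 1.54e-06). Tes lies 175360 bases before Cav2 and was lower by 0.14 at 96 h (adjusted p = 0.0199) and higher by 0.38 at 240 h (adjusted p = 2.24e-07). Stat3, 17142 bases from Cavin1, was higher by 0.15 (adjusted p = 0.00609) and 0.10 (adjusted p = 0.0287). On its other side Atp6v0a1, 38805 bases away, did not pass at 96 h and was higher by 0.28 at 240 h (adjusted p = 4.15e-06). Beside Cavin2, Tmeff2 was lower by 0.45 at 96 h (adjusted p = 0.000227) and by 0.44 at 240 h (adjusted p = 1.20e-05), and Nabp1 was higher by 0.46 at 240 h (adjusted p = 2.08e-05). Smpd1, described above, is the neighbour of Cavin3 at 72163 bases and was higher where Cavin3 was lower. Tmeff1 ends 382 bases before Cavin4 starts and was lower by 0.24 at 240 h (adjusted p = 0.00283), and Gm4972 beside Cavin3 was lower by 0.36 (adjusted p = 0.0269). Mrpl50 beside Cavin4 and Lmcd1 and Rad18 beside Cav3 did not pass at either time.

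Likeness of pattern was measured as the root mean square difference of centred log2 CPM over the 12 libraries among 11483 genes, as a description. Nearest to Cav1 were Thbs1, the matrix protein thrombospondin-1, at 0.0551, the junction protein gene Jph2 at 0.0697 and the guanylate cyclase subunit gene Gucy1a2 at 0.0723, where the spread of Cav1 about its own mean was 0.529. At 240 h Thbs1 was higher under WM-8014 by 0.48 and Jph2 by 0.69, and at 96 h neither passed the test (0.03 and 0.13). Nearest to Cav2 were Pdrg1 at 0.108, the urokinase gene Plau at 0.117 and Lingo1 at 0.123 (own spread 0.552). Nearest to Cavin1 were Tacc2, Abcd3 and Atp6v1c1 at 0.0347 to 0.0406 (own spread 0.0755). For Cavin2 they were Pi4k2a, Smg5 and Ubqln1 at 0.0471 to 0.0509 (own spread 0.125). For Cavin3 they were Abhd2, the collagen chaperone gene Serpinh1 and Sh2b3 at 0.0621 to 0.0646 (own spread 0.169). Nearest to Cavin4 were Erfe, Ptbp2 and Alg6 at 0.138 to 0.162 (own spread 0.292). Relative to own spread, the distances of the cavins were larger than those of Cav1 and Cav2, so a smaller distance is not a closer match. Within the family the closest pairs were Cavin2 with Cavin3 at 0.127 and Cav1 with Cav2 at 0.148, whereas Cav1 and Cavin1 were 0.507 apart. The own spreads of Cavin2 and Cavin3 were only 0.125 and 0.169, so that their distance was about as large as the spread of Cavin2 itself, while that of Cav1 and Cav2 was well below their own spreads.

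The cells carried fibroblast transcripts in every library, led by Col1a1, Fn1 and Col1a2. The 10 markers summed to 30262 to 33998 CPM under WM-2474 and 32650 to 36951 under WM-8014 at 96 h. At 240 h they summed to 49704 to 52147 and 52998 to 54103 CPM. With time, 7 of the 10 were called higher and 1 lower under either compound. Of all genes, 19.8% were called higher and 19.1% lower with time under WM-2474, and 24.8% and 25% under WM-8014. Since caveolae also mark muscle, endothelium and fat, the markers of those cells were read beside the family. Smooth muscle markers, all 8 of them detected, summed to 4527 to 4682 CPM under WM-2474 and 3891 to 4066 under WM-8014 at 96 h, and to 8946 to 9661 and 8827 to 9975 CPM at 240 h. They were higher at 240 h than at 96 h, and all 8 markers were called higher with time under either compound, beside the shares above. Their ranges for the compounds were apart at 96 h and overlapped at 240 h. The leading genes Acta2 and Tagln were lower under WM-8014 at 96 h (-0.28 and -0.14) and did not pass at 240 h (-0.03 and 0.08). They averaged 3934 and 2121 CPM, and none of the others above 246, so these genes gave most of the sums. Of the 8 markers, 0 were called higher and 4 lower at 96 h, beside 10.9% and 11.8% of all genes. At 240 h 2 were higher and 1 lower, beside 21.2% and 21.4%.

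Of 12 skeletal muscle markers, Des, the intermediate filament desmin, gave almost all of the sum, which ran at 21.7 to 26.3, 33.3 to 36.5, 29.4 to 36.9 and 83.1 to 106 CPM in the order WM-2474 and WM-8014 at 96 h, then at 240 h. Des was higher under WM-8014 by 0.54 at 96 h (adjusted p = 0.00647) and by 1.61 at 240 h (adjusted p = 1.01e-07). The other leading markers, Tnnt3 and Ttn, were at or below 1.39 CPM in every library, 9 of the 12 genes stayed under 1 CPM throughout, and the muscle regulators Myod1 and Myog averaged 0.0622 and 0.0638 CPM. Endothelial markers summed to 11.8 to 13.6 and 10.0 to 11.0 CPM at 96 h and 8.14 to 8.66 and 6.98 to 8.09 CPM at 240 h, led by Egfl7, Tek and Kdr, with Pecam1 at a mean of 0.116 CPM. Their sums were lower at 240 h than at 96 h under either compound. Adipocyte markers summed to 56.4 to 65.1 and 62.6 to 76.1 CPM at 96 h and 38.6 to 44.7 and 27.9 to 29.5 CPM at 240 h. Their leading gene Lpl was lower under WM-8014 at 240 h (-0.96) while Pparg and Fabp4 were higher (1.16 and 1.31), and Plin1, Adipoq and Cidec averaged 0.0381 CPM or less. Leukocyte markers summed to 5.20 to 12.4 CPM, led by Csf1r, Cd68 and Lyz2, and their sums were higher under WM-8014 at both times, at 9.28 to 12.4 against 7.38 to 8.17 CPM at 96 h and 10.0 to 11.3 against 5.20 to 6.33 CPM at 240 h, while the pan-leukocyte marker Ptprc averaged 0.166 CPM. Epithelial markers summed to 12.3 to 28.4 CPM, led by Krt19, Krt18 and Cldn3, with Cdh1 and Epcam at means of 0.0667 and 0.0374 CPM. The part of any of these cells in the levels of the caveolins and cavins was not tested.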

How the data were processed

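RNA of 12 cultures was read as TruSeq stranded mRNA libraries, per the labels' protocols. The authors deposited 1 table of read counts per Entrez gene, made with featureCounts against mm10, as recorded per the submitters' processing notes, and no aligner is given in the sources used here. The gene lengths deposited in the same table were used for RPKM. Genes were matched to symbols through a RefSeq gene table (25275 of 27179), and coordinates are those of GRCm38.p6, the same build.

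From the counts, edgeR 4.0.16 (R 4.3.3, limma 3.58.1) was run with its default expression filter by group, TMM scaling and a robust quasi-likelihood F test of 4 group means over all 12 libraries, with Benjamini-Hochberg adjustment over 14136 genes and a threshold of 0.05. Standard errors were taken as the log2 fold change divided by the square root of F. Single-library log2 CPM used a prior count of 2. DESeq2 1.42.0, RLE scaling, library totals (chosen after seeing the data), no filter, a replicate block, only the groups compared, thinning and leaving out libraries were the alternatives. They were run for the pathway lists and their named genes after those values were seen. The code was tested on simulated data. Intervals are for differences of group means, from a spread estimated jointly over the 4 groups. They are not ranges of single cultures and reach no further than these cultures.

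Named genes were all 7 members, the 3 genes most like each, up to 4 genes per list and time with the smallest p, the 3 highest markers per list and the nearest tested neighbours. The genes Pacsin2, Src, Cers6, the dynamins and phosphatidylserine synthases, and the low markers, were named after their values were seen. The members and lists were chosen with earlier results of these data known. Same-numbered libraries of the 2 compounds deviated together at 96 h (correlations 0.141, 0.150 and 0.158, all over the set limit of 0.1). The numbers were read as pairing there, without a test, and only the replicate block took this up, not the main fit. At 240 h the correlations were 0.0636, 0.243 and 0.0475 and did not all pass. Between the times they were 0.0289, 0.102 and 0.0745 under WM-2474 and 0.0636, 0.190 and 0.0816 under WM-8014, and did not all pass either. Libraries of a group differed beyond sampling noise in all pairs (chi-square per degree of freedom 2.10 to 7.13).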

Additional observations from a re-analysis of the deposited data

Results flagged for a closer look

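Several compound effects differed between 96 h and 240 h by the interaction test of edgeR, adjusted over all genes. Of all tested genes, 5.15% were called positive and 5.53% negative by it. The genes of the lists were looked at because their compound p was small at 96 h or 240 h. That choice favours genes whose effect differs between the times. The effect of WM-8014 at 240 h minus that at 96 h, on the log2 scale, was 0.43 for Cav1 (adjusted p = 2.74e-06), 0.66 for Cav2 (adjusted p = 9.83e-06) and 0.18 for Cavin1 (adjusted p = 0.0126). Among the caveola partners it was 0.27 for Ehd1 (adjusted p = 0.00211) and 0.50 for Ehd4 (adjusted p = 8.61e-05). Among the lipid enzymes it was 0.18 for Cert1 (adjusted p = 0.0428), 0.39 for Sgms2 (adjusted p = 0.00866) and 0.24 for Smpd1 (adjusted p = 0.0234). Among the markers of other cells it was 1.07 for Des (adjusted p = 0.000960), 0.24 for Acta2 (adjusted p = 0.0115), 0.22 for Tagln (adjusted p = 0.0230), 0.86 for Pparg (adjusted p = 0.00150) and -1.06 for Lpl (adjusted p = 0.000454). The interaction call of Cavin1 was lost under 3 of 22 alternatives (adjusted p up to 0.193), while those of Cav1 and Cav2 held in all 22. For the genes outside the family, the interaction was run under no alternative, so how far these calls hold is not known.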

How the results depend on the processing

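Of 528 alternative values for the 30 gene results, 473 kept direction and side of the threshold, and 14 results did so throughout. The compound effects at 240 h of Cav1, Cav2, Cavin1 and Cavin3, and the time and interaction results of Cav1 and Cav2, were among them. Of the values whose sign turned, the only one past the threshold was that of Cavin1 over time under WM-8014 with library totals (-0.0916), by which scaling Cavin2 over time was -0.0760 under WM-2474 and -0.0370 under WM-8014. For Cavin4, thinning gave 0.124 at 96 h, 0.162 at 240 h and 0.0375 for the interaction. Leaving out libraries or cultures moved Cavin4 between -0.431 and 0.0654 at 96 h and between -0.364 and 0.263 for the interaction, Cavin3 at 96 h between -0.0931 and 0.000109 and the Cavin2 interaction between -0.00339 and 0.160. Without control cultures 6 and 7 of 96 h, Cavin2 over time under WM-2474 was -0.000512. The causes were not tested.

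Called members numbered 1 to 3 at 96 h and 3 to 6 over time under WM-8014 when libraries or cultures were left out, and all called genes 1750 to 2762 at 96 h and 724 to 1603 for the interaction. Without control cultures 6 and 7 of 96 h, a fit in which the lone library is assumed to vary like the other groups, 1 member and 869 genes were called at 96 h, 586 genes for the interaction and 2710 over time under WM-2474. With the culture number as a replicate block, 3590 genes were called at 96 h against 3218, and the Cavin3 interaction was gained (-0.18); it changed no other call of a member. Cavin4 rested on 758 reads in all, and Cav3 could not be tested.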
